A study of Bos taurus with 2 samples.

Results

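The 27 genes described here encode proteins of the small subunit of the cytosolic ribosome: RPSA, RPS2, RPS3, RPS3A, RPS4X, RPS6, RPS7, RPS9, RPS10, RPS12, RPS13, RPS14, RPS15, RPS15A, RPS16, RPS18, RPS19, RPS20, RPS21, RPS23, RPS24, RPS25, RPS26, RPS27, RPS27A, RPS28 and RPS29. They were taken by name, with every probe whose gene name, or whose accession through the RefSeq gene table, gave one of them. They had 100 of the 43653 distinct probes on the array, and all 27 were among the 10339 genes with a value. The data come from whole blood of Holstein cattle (Bos taurus), hybridised as Cy3-labelled RNA to a bovine oligonucleotide array. The first specimen was of low feed efficiency, which is high residual feed intake, the other of high feed efficiency, and each was read on 1 array of the same slide and scan. No treatment, age, sex or time of sampling is given in the sources used here, nor is the number of animals behind each specimen. With 1 array per group there is no replicate, no test and no p-value, and precision is limited by having so few arrays.

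The small ribosomal subunit binds messenger RNA, scans it with the initiation factors and holds the decoding site where codons meet transfer RNA. Its proteins sit on a single ribosomal RNA and are needed in equal number per subunit, and their messenger RNAs carry a terminal oligopyrimidine tract at the start that ties their translation to growth signalling. In blood, these messages are abundant in lymphocytes and in immature red cells, while mature neutrophils hold few ribosomes.

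Of the 100 probes, 87 were kept and above background on both arrays, and every one of the 27 genes had at least 1 of them. Background here means an intensity of 10.9, set from the negative control spots. Of the 13 other probes, 12 had been designed on GenBank or expressed-sequence-tag records, of 15 such probes in all, and 1 was an RPS19 probe kept out because of its flag on the low efficiency array, although bright. Of the probes designed on RefSeq records 83 were used, and that RPS19 probe was the exception. No probe of these genes had a saturated pixel on either array, although the brightest probes, those of RPS28, reached 58273 on the low and 60299 on the high efficiency array. The lowest value of a gene's brightest probe was 8699 in the low and 8114 in the high efficiency specimen, for RPS9. These genes were therefore read at the bright end of both arrays, as the plot of the intensities of both arrays shows.

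**Figure D1:**
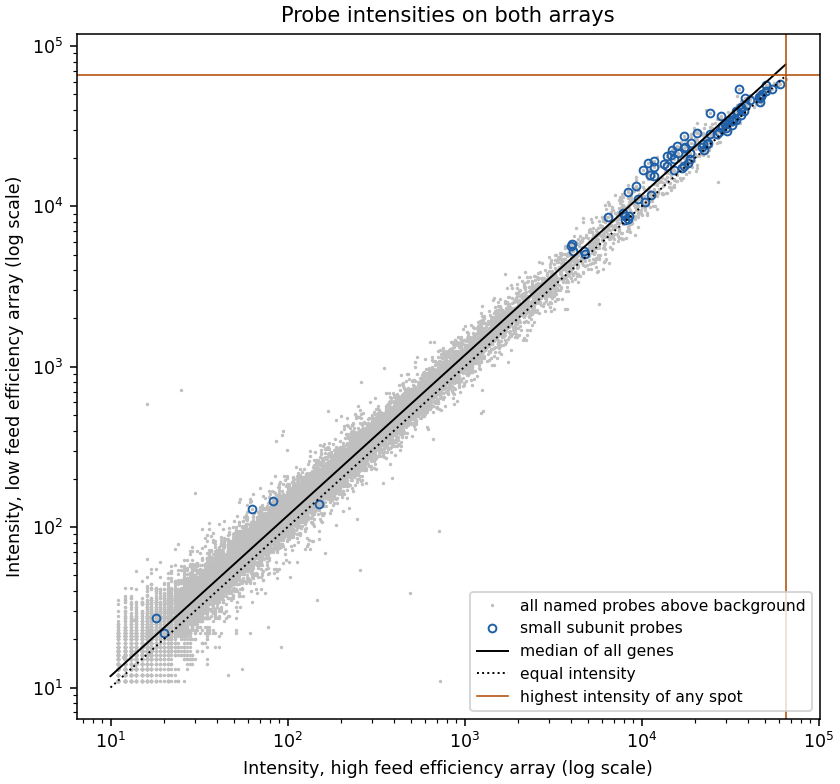
Probe intensity in low feed efficiency (vertical, log scale) against high feed efficiency (horizontal, log scale), with the 87 small subunit probes as circles over all named probes above background in grey. The solid line is the median difference of all genes, the dotted line equal intensity, and the thin coloured lines the highest intensity of any spot; most circles lie near the top of the range and 5 lie below 1000.

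A gene's value is the difference at its brightest probe, on the log2 scale after each array was divided by its 75th percentile (98 in the low and 81 in the high efficiency specimen), as low minus high. It is given relative to the median of all genes, which removes the choice of a scaling factor. A value of 0 is thus the typical gene of these arrays, and a probe with equal intensities on both arrays has a value of -0.24.

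The median of the 27 genes was -0.09 and their mean -0.03 with an SD of 0.20 over genes. The highest was RPS3A at 0.40 and the lowest RPS2 at -0.29, and the distance of 0.70 between them is 1.62-fold. None of the 27 genes and none of their 87 probes was 2-fold apart, where 0.938% of all genes were (97 of 10339), and none of the genes was 1.5-fold apart, where 5.82% of all genes were (602). These folds were counted on the scaled difference before the median of all genes, -0.04, was subtracted, so they depend on the scaling factor. With scaling on spike-in probes instead, RPS3A, RPS15A and RPS24 passed 1.5-fold, and none of the 27 genes passed 2-fold. Among the 255 genes in the same range of mean signal, which hold the 27, only 1 was 2-fold and 3 were 1.5-fold apart, and their SD was 0.24, so a narrow spread is shared by genes this bright. RPS3A, RPS15A and RPS24 lay above the 95th percentile of those 255 genes, which was 0.33. Above the median of all genes lay 8 members, and 19 lay below it. That split depended on the normalization and background correction, but not on the scaling factor: 14 lay above after quantile normalization, 15 after loess normalization, 16 after normexp background correction and 14 in the authors' deposited table.

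**Figure D2:**
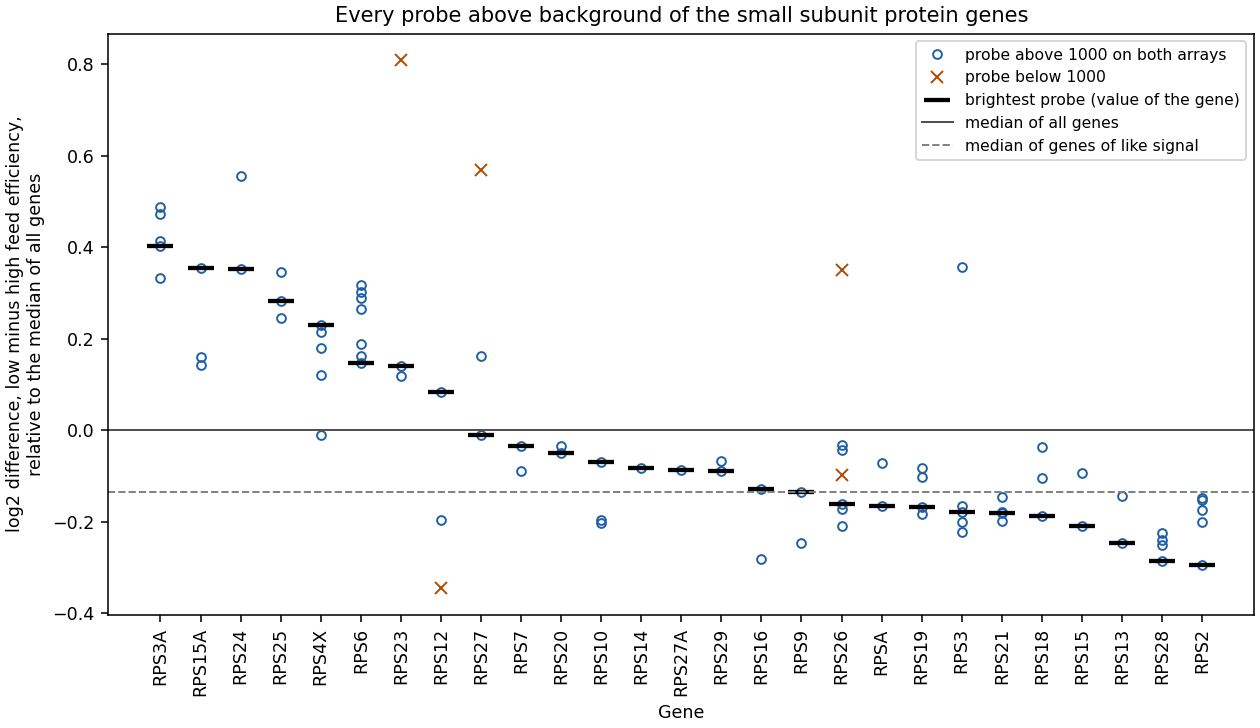
Log2 difference, low minus high feed efficiency, relative to the median of all genes (vertical) for each of the 87 probes, by gene in order of the brightest probe (black bar). Circles are probes above 1000 on both arrays and crosses are dimmer ones, and the dashed line is the median of genes of like signal; the genes run from RPS3A at 0.40 to RPS2 at -0.29 with no gap larger than 0.09.

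The largest of the 26 steps between neighbours was 0.09, and replicate spots of one probe had an SD of 0.10 (11 bright probes, 44 spots), so no step exceeded that SD. The SD over spots of bright spike-in probes was 0.08 (4 probes, 125 spots), and 2 steps exceeded it, from RPS12 to RPS27 and from RPS4X to RPS6. Over the bright probes, the pooled SD among probes of one gene was 0.10 (80 probes of 25 genes), and the SD between gene means was 0.20 over the 27 genes. The ratio of the 2 was 1.97. Probes of one gene share the same RNA and are not biological replicates, so this spread holds no variation between animals. Beside probe and hybridisation error, signal from other transcripts or gene copies can enter it.

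At the high end stood RPS3A, a protein on the platform side of the subunit. Its 5 probes read 38000, 27315, 20705, 19252 and 16915 in low feed efficiency and 24398, 17417, 13963, 11781 and 10248 in high feed efficiency. Each was brighter in low feed efficiency, and the relative difference ran from 0.33 to 0.49 over the 5.

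RPS15A, a protein of the body, followed at 0.36. Its 3 probes read 22494, 19775 and 15473 in the low and 14932, 15205 and 11754 in the high efficiency specimen. The value of 0.36 rests on the brightest, since the other probes gave 0.14 and 0.16.

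RPS24, a body protein that is mutated in some families with Diamond-Blackfan anaemia, stood at 0.35. Its probes read 23870 and 18769 in the low and 15877 and 10849 in the high efficiency specimen, and the dimmer of them gave 0.56. A further RPS24 probe was at background on both arrays.

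RPS25, a head protein needed for initiation on several internal ribosome entry sites, stood at 0.28. Its 3 probes read 20967, 17505 and 15676 in the low and 14645, 11696 and 11225 in the high efficiency specimen, with differences from 0.25 to 0.35. RPS4X, the X-linked form of S4, stood at 0.23. Its 5 probes read 28531, 23570, 18257, 11095 and 5239 in the low and 20655, 17684, 13352, 9492 and 4093 in the high efficiency specimen. Of these probes, 4 lay above the median of all genes, and the probe at 11095 and 9492 gave -0.01. The hits listed for 2 of the RPS4X probes also name RPS4Y1, so those probes can read both genes.

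RPS6, the S6 kinase substrate that is phosphorylated when growth signalling is on, stood at 0.15. All of its 7 probes above background lay above the median of all genes, from 0.15 to 0.32, and its brightest read 36843 in the low and 28255 in the high efficiency specimen. RPS23, a protein of the decoding centre, stood at 0.14, and RPS12, on the beak of the head, at 0.08. RPS3A, RPS15A, RPS24, RPS25, RPS4X, RPS6 and RPS23 lay above the median of all genes under each of the 17 alternative settings in which they had a value. Some of those settings could not change a side. The same genes also lay above the median of genes of like signal.

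At the low end stood RPS2, a protein near the channel through which messenger RNA enters. Its 5 probes read 44631, 29172, 28325, 19646 and 17794 in the low and 46473, 27528, 26668, 18836 and 17360 in the high efficiency specimen. The intensities were thus close to equal, and the relative difference ran from -0.29 to -0.15.

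RPS28, near the exit of the messenger RNA channel, also stood at -0.29. Its 4 probes above background read 58273, 53946, 34351 and 32409 in the low and 60299, 54489, 34084 and 32481 in the high efficiency specimen, and gave -0.29 to -0.22. A further RPS28 probe was at background.

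RPS13, a body protein, stood at -0.25. Its probes read 22403 and 5080 in the low and 22575 and 4767 in the high efficiency specimen, and the dimmer gave -0.14. RPS15, a head protein close to the decoding site, stood at -0.21. Its probes read 30700 and 31612 in the low and 30143 and 28634 in the high efficiency specimen, and the second gave -0.09. RPS18, at the contact of the head with the large subunit, stood at -0.19. Its 3 probes read 52330, 41909 and 31337 in the low and 50566, 36498 and 28615 in the high efficiency specimen, and gave -0.19 to -0.04. RPS15 and RPS18 each had 1 further probe at background. All 5 low-end genes were thus close to equal intensity on both arrays, which lies at -0.24 on the relative scale.

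Between these ends lay the other genes. RPS7, RPS20 and RPS10 stood at -0.03, -0.05 and -0.07, with brightest probes at 39278, 46354 and 56792 in the low and 34166, 40732 and 50590 in the high efficiency specimen. RPS10 and RPS20 are head proteins that are ubiquitinated when ribosomes collide. RPS14, whose loss of 1 copy underlies the anaemia of a form of myelodysplastic syndrome, stood at -0.08, and RPS27A, made as a fusion with ubiquitin, at -0.09. Each had a single probe above background, at 24647 and 43117 in the low and 22173 and 38900 in the high efficiency specimen.

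RPS29, RPS16 and RPS9 stood at -0.09, -0.13 and -0.14, with brightest probes at 34598, 34715 and 8699 in the low and 31245, 32244 and 8114 in the high efficiency specimen. RPS29 is a zinc-binding head protein, RPS16 reaches the transfer RNA in the peptidyl site, and RPS9 lines the messenger RNA entry. RPSA, also known as the laminin receptor, stood at -0.16 with 34823 in the low and 33147 in the high efficiency specimen. RPS19, the gene most often mutated in Diamond-Blackfan anaemia, stood at -0.17 with 50219 and 47906, and its 4 probes in use gave -0.18 to -0.08. RPS21 stood at -0.18 with 39393 and 37935. RPS29, RPS16, RPS9, RPSA, RPS19 and RPS21 each lay below the median of all genes at the brightest probe.

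Probes of a gene mostly fell on the same side. Of the 25 genes with more than 1 probe above background, 20 had all of them on 1 side of the median of all genes, 6 above and 14 below. Among all genes with more than 1 probe, 58.8% did (2939 of 4995), and among genes of like signal 67.9% did (133 of 196). The median range over probes was 0.15, from 0.02 for RPS20 to 0.69 for RPS23.

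The widest ranges came from dim probes or from 1 probe apart from the rest. RPS23 read 24691 and 17779 in the low and 19009 and 13900 in the high efficiency specimen at its bright probes, which gave 0.14 and 0.12. Its dim probe, at 130 and 63, gave 0.81, the largest difference of the 87 probes. RPS27, a zinc-finger protein, read 28332, 22972 and 145 in the low and 24242, 17441 and 83 in the high efficiency specimen, for differences of -0.01, 0.16 and 0.57. RPS12 read 47707, 37324 and 140 in the low and 38258, 36318 and 151 in the high efficiency specimen, for 0.08, -0.20 and -0.34.

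RPS3, at the messenger RNA entry and also known for a role in DNA repair, had 4 probes between -0.22 and -0.17, the one that stands for the gene reading 47992 and 46159. The remaining probe, with 53761 in the low and 35646 in the high efficiency specimen, gave 0.36. The 3 dimmer of the 4 read 11831, 10578 and 8742 in the low and 11270, 10484 and 8529 in the high efficiency specimen. RPS26, which touches the messenger RNA upstream of the start codon, had 7 probes. Those above 1000 read 24918, 24326, 21429, 18706 and 9046 in the low and 23661, 23284, 18738, 18352 and 7850 in the high efficiency specimen, and gave -0.21 to -0.03. Its dim probes, at 27 and 22 in the low and 18 and 20 in the high efficiency specimen, gave 0.35 and -0.10. Of the 87 probes, 29 from 12 of the genes list more than 1 Ensembl transcript among their hits. Near-identical copies of ribosomal protein genes can share signal with them. Among these probes are all 7 of RPS6, all 3 of RPS15A and most of those of RPS3A, RPS4X and RPS23. They are thus more frequent among the 7 genes that stayed above under the alternatives than among the others, although RPS24 has none. The part of such shared signal in the values was not tested.

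The difference between arrays moved with signal over the whole array. Genes with an intensity under 50 in high feed efficiency had a median of 0.06 (3255 genes), those from 50 to 500 a median of 0.02 (4596) and those from 500 to 5000 a median of -0.07 (2070). Those from 5000 to 20000 had a median of -0.15 (311, with 5 of the 27) and those above 20000 a median of -0.14 (107, with 22 of the 27). This grouping is by the intensity that is subtracted, which can by itself raise the dim groups and lower the bright ones. Against the 255 genes in the same range of mean signal, the 27 among them, whose median was -0.14, 17 of the 27 lay higher and their median lay 0.05 higher. Only 28.6% of those 255 genes lay above the median of all genes, beside 8 of the 27. The part of signal in the position of these genes below the median of all genes was not tested further.

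**Figure D3:**
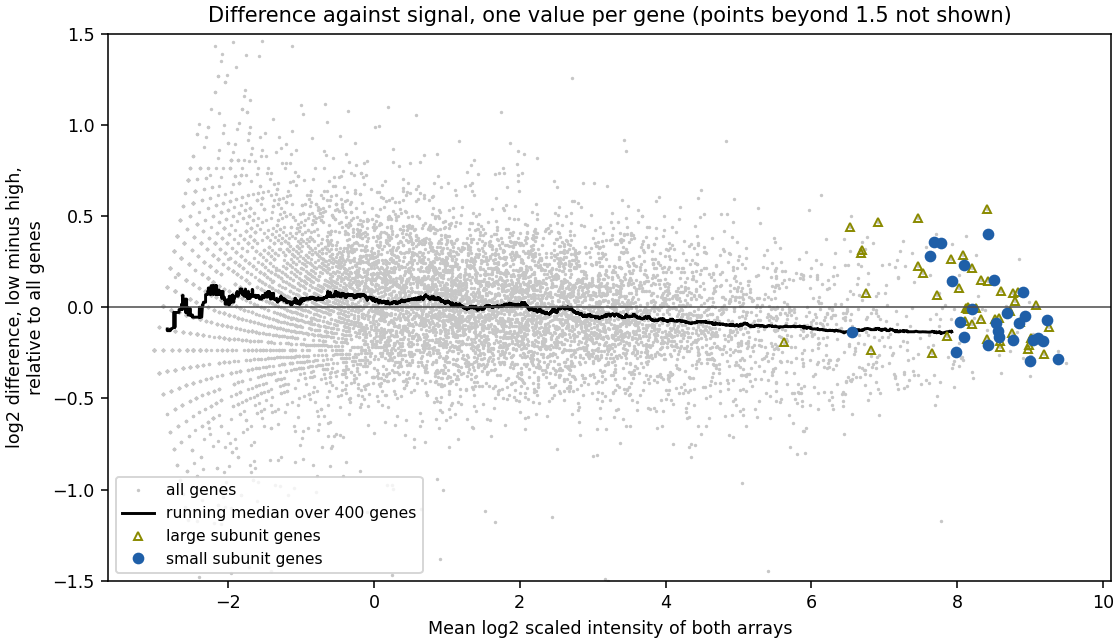
Log2 difference, low minus high feed efficiency, relative to all genes (vertical) against the mean log2 scaled intensity of both arrays (horizontal), 1 point per gene, with small subunit genes filled and large subunit genes as triangles. The black line is a running median over 400 genes, and it lies below 0 at the bright end where the small subunit genes sit.

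By site in the subunit, a grouping made after the values were seen, the 12 head proteins had a median of -0.11 with 2 above the median of all genes and 10 below. The 15 proteins of body and platform had a median of -0.03 with 6 above and 9 below. Of the 7 genes that stayed above under the alternatives, RPS25 is a head protein and the others belong to body and platform. The ranges of the groups overlapped, from -0.29 to 0.28 in the head and from -0.29 to 0.40 in body and platform.

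None of the genes in the 6 pathway lists was 2-fold apart. The lists differ in signal, and the assembly factors and regulators were all dimmer than the 27 genes. By signal in high feed efficiency, the median of genes moved from 0.06 under 50 to -0.14 above 20000. The list medians were not set against genes of like signal. The 8 further small subunit proteins had a median of -0.04, 3 above and 5 below, with RPS27L, a close relative of RPS27, at 0.33 and FAU, made as a fusion with a ubiquitin-like protein, at -0.26. Of the large subunit proteins 46 of 47 were measured, with a median of -0.0046, 21 above and 25 below. RPL15 stood at 0.54 and RPL9 at 0.49, both higher than any of the 27 genes, and RPLP0, of the stalk, at -0.26 and RPL3 at -0.25. The probes of RPL15, RPL9 and RPLP0 disagreed, from -0.30 to 0.54, from -0.37 to 0.49 and from -0.95 to -0.08.

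The 11 other messages with a terminal oligopyrimidine tract had a median of -0.05, 5 above and 6 below, with HNRNPA1 at 0.24 and the elongation factor subunit EEF1G at -0.33. Of the initiation factors that work on the small subunit 25 of 27 were measured, with a median of 0.04, 16 above and 9 below. The cap-binding EIF4E stood at 0.46 and EIF3F at -0.45. Of the assembly factors 20 of 24 were measured, with a median of 0.07, 13 above and 7 below, with PNO1 at 0.42, from a single probe at 60 and 38, and fibrillarin, FBL, at -0.44. Of the regulators 15 of 18 were measured, with a median of 0.01, 9 above and 6 below, with MKNK2 at -0.39 from a single probe at 90 and 100. RPS6KA3, a relative of the S6 kinases, stood at 0.39 from a single probe at 20 and 13, close to the background of 10.9.

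**Figure D4:**
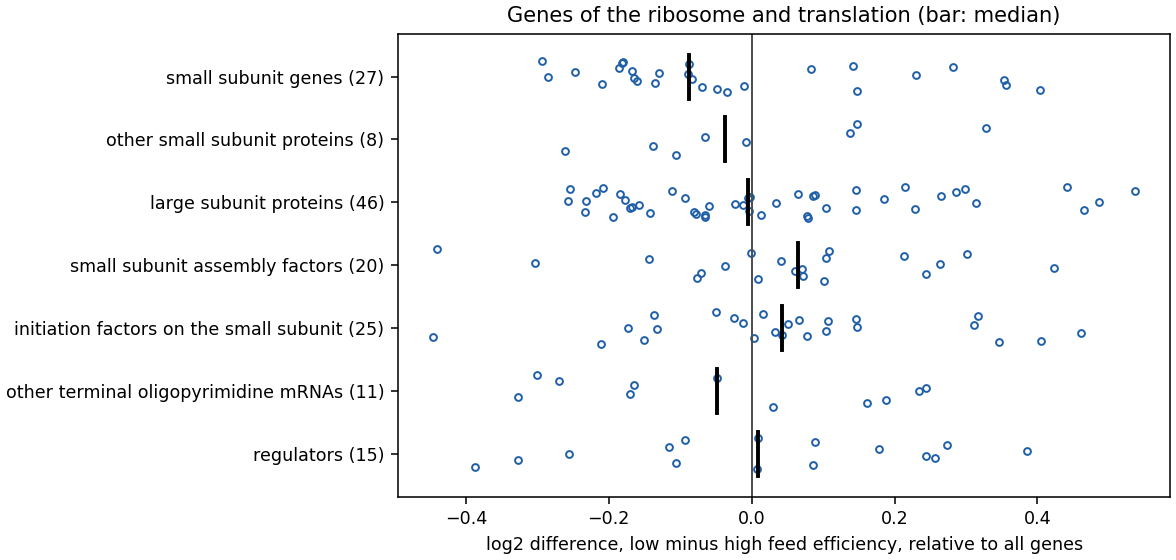
Log2 difference, low minus high feed efficiency, relative to the median of all genes, for each gene of the small subunit and of the 6 pathway lists (circles), with each list's median (bar) and the number of genes in brackets. The small subunit median is -0.09 and the medians of the other lists run from -0.05 to 0.07, and all lists overlap. The lists differ in signal, with which the difference moved, and the medians shown are not adjusted for it.

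All 8 defining markers of whole blood, among them the leukocyte antigen PTPRC and the globin genes HBA and HBB, were above background on both arrays, with a median of 0.15. The 13 of 15 neutrophil markers measured had a median of 0.14, 9 above and 4 below, with a summed scaled intensity of 931 in the low and 830 in the high efficiency specimen. Such a sum weighs the brightest genes most. Before scaling, S100A12 gave 48851 of 91207 in the low and 34561 of 67242 in the high efficiency specimen. The 10 of 11 natural killer cell markers had a median of -0.25, 1 above and 9 below, summing to 144 and 180. The brightest of them were GZMB, at 6036 and 5669 before scaling, and GNLY, at 4955 and 5672. The 14 of 15 T cell markers had a median of -0.09, 5 above and 9 below, summing to 310 and 364. The brightest of them was CD4, at 9466 and 10394 before scaling, and its 2 probes disagreed, from -0.37 to 0.21. The 9 of 10 B cell markers had a median of -0.01, 4 above and 5 below, summing to 93.0 and 99.0.

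The 8 of 10 monocyte markers had a median of -0.12, summing to 303 and 346, and the 11 of 18 erythroid markers a median of 0.04, 6 above and 5 below, summing to 533 and 468. The monocyte sum rests mostly on FCN1 and LYZ, which stood at -0.37 and 0.35, and the erythroid sum mostly on HBA and HBG. HBA, HBB, HBG and CA2 stood at 0.17, 0.30, 0.36 and 0.37, and ALAS2, of haem synthesis, stood at -1.38 from a single dim probe that read 112 and 248. The 9 of 12 platelet markers had a median of -0.02, 4 above and 5 below, and only 4 of 11 eosinophil, basophil and mast cell markers were measured. In whole blood, fewer cells of a type and less RNA per cell cannot be told apart. The part of cell composition in the values of the small subunit genes was not tested.

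**Figure D5:**
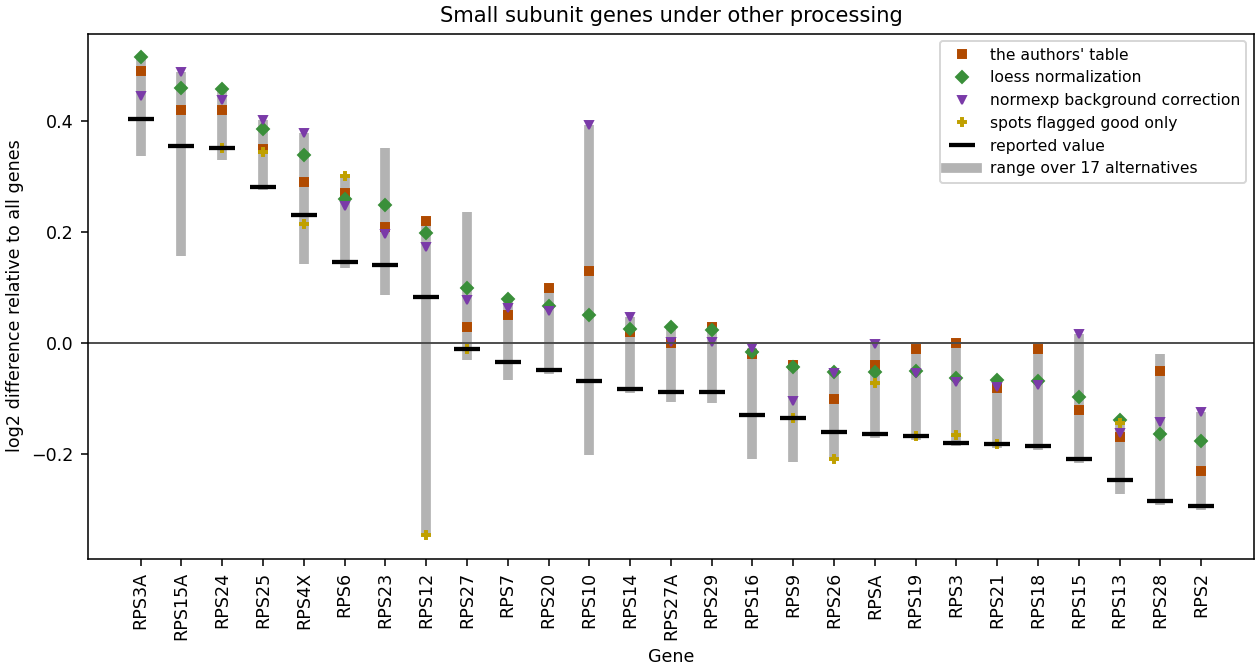
Relative log2 difference of each small subunit gene as reported (black bar) and its range over 17 alternative settings (grey), with 4 settings marked. Of the 27 genes, 17 stayed on 1 side of the median of all genes, 7 above and 10 below, and 10 were found on either side or at 0; the reference of genes of like signal is not among the 17 settings, and against it RPS9 and RPS16 turn from below to above.

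The side on which a gene lay held over the alternatives for 17 of the 27, as the plot of the alternatives shows. Several of the settings could not test this. Both changes of the scaling factor cancel in the relative value, array gene names alone gave the same values, and no member probe was saturated. Dropping the dim filter, using brighter probes only and keeping not-found spots moved all 27 genes together, through the reference. The 10 that stayed below were RPSA, RPS2, RPS9, RPS13, RPS16, RPS18, RPS19, RPS21, RPS26 and RPS28. Against the median of genes of like signal, which is not among these 17 settings, RPS9 and RPS16 lay at or just above it, and 8 of the 10 remained below. The 10 that lay on either side or at 0 were RPS3, RPS7, RPS10, RPS12, RPS14, RPS15, RPS20, RPS27, RPS27A and RPS29. The values of RPS10 ranged most by setting, reaching 0.39 with normexp background correction and 0.29 with the pixel mean. The normexp setting also used the pixel mean, with a local background. RPS12 was at -0.35 when only spots with a good flag were kept, which left 13 of the genes. Of RPS12, that setting left only the dim probe at 140 and 151.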

How the data were processed

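The scanner files come from GenePix Pro 6.1.0.4 and a GenePix 4000B, per the file headers; Agilent Feature Extraction is listed in the submitters' processing notes. Both arrays shared 1 slide and 1 scan. The deposited intensity used was each spot's pixel median at 532 nm less a background read from negative controls. The deposited files also give saturated pixels as a percent, and a flag as a score, 100 for good spots, 0 for unflagged and -50 for those not found. The authors' deposited log2 table ranked probes like the scanner values once shifted by 1 row (rho 0.0766 and 0.0716 before, 1.00 after, 43652 probes). It served as an alternative; its normalization method: not given in the sources used here.

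Control spots, and bright spots with a not-found flag, were left out, which kept 43096 probes, of which 22000 were above background on both arrays. Background was 3 robust SDs above the negative control median. Intensities were divided by the 75th percentile and taken to log2, and a gene took its brightest probe above background. Genes of like signal were those in the range of mean signal of the members, which are among them, as are most large subunit genes. Genes were named through RefSeq accessions (assembly ARS-UCD2.0, names only). Python 3.11.15, R 4.3.3 and limma 3.58.1 (normexp offset 50, loess span 0.3) were used, and the scripts were tested on simulated data. Genes named in full were the 5 largest, the 5 smallest, the 5 with the widest probe range, and any 2-fold apart or saturated; from each pathway list at most the 2 farthest from the all-gene median on each side. The alternatives changed the background, scaling, normalization, filters, probe summary or naming, 16 chosen at first and 3 added after seeing the data. The members, lists and naming rule were chosen with earlier results of these data known.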

Additional observations from a re-analysis of the deposited data

Results flagged for a closer look

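Some probes whose descriptions name a small subunit protein, but that carry no member's gene name, also read above background; they entered no comparison. Intensities are given for low and then high feed efficiency. Of the probes with no gene name, one described as S2 read 72 and 58, one described as S8 read 68 and 67, and one described as part of S6 read 1503 and 1288. The probe of LOC783533, an RPS6 pseudogene, read 2225 and 1597, a relative difference of 0.24. The probe of LOC515006, described as similar to S3a, read 2594 and 1453, a relative difference of 0.60. The probes of LOC784183 above background, described as similar to S2, were dim, at 25 and 20 and at 26 and 21. A further probe of LOC784183, at 6 and 4, was not above background. The probe of LOC786091, described as S26, read 12736 and 10726, a relative difference of 0.01. The probe of LOC100851189, described as similar to S15a, read 54 and 256, a relative difference of -2.48, which is lower in low feed efficiency while RPS15A itself stood at 0.36. The RPS19 probe kept out by its flag read 25771 and 24559.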

How the results depend on the processing

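The median of the small subunit genes, -0.09 relative to all genes, turned positive: it was 0.016 with normexp background correction, 0.012 with quantile and 0.025 with loess normalization, 0.02 in the authors' deposited table and 0.048 relative to genes of like signal. The count above the median of all genes, 8 of 27, became 16 with normexp, 14 with quantile and 15 with loess normalization. It was 14 in the authors' deposited table and 17 relative to genes of like signal. With good spots only it was 4 of the 13 genes left, a similar share. That value is listed as moved only because counts, not shares, were compared. The range over probes was 0.317 with normexp and 0.357 with the pixel mean. The normexp setting itself used the pixel mean, with a local background, so it changed more than the correction. The cause was not tested. The other 55 of 67 such values, that quantile median just among them, moved by less than the SD over replicate spots or, for counts, by less than 1.5 times. Of the values of single genes, 358 kept within that SD and 112 did not. Both tallies include settings that could not change a value or that moved all members together. Scaling on 7 spike-in probes moved the median of all genes by 0.34, and left relative values as they were. Differences before that median is subtracted did change. RPS3A, RPS15A and RPS24 then stood at 0.71, 0.66 and 0.65, past 1.5-fold, and RPS2, the lowest of the 27, at 0.01. Of all 10339 genes, 184 were then 2-fold higher and 20 lower, but none of the 27. The 1.5-fold count over all genes was not made with that scaling. The spike-in scaling, the limit at 40000 and the like-signal reference were chosen after seeing the data. No paired analysis was possible because each group has 1 array, so the groups share only 1 replicate number. Leaving out an array leaves no comparison.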
